A study of Homo sapiens with 4 samples.

Results

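The genes of pyrimidine and fluorouracil metabolism described here were compared across spheroids of 4 human colon cell lines. They are UPP1, TYMP, UMPS, UCK2, TK1, RRM1, RRM2, TYMS, DUT and DPYD, chosen by symbol from the 58740 genes of the deposited gene table, and all 10 were found once. HCEC-1CT is a line from normal colon made immortal with CDK4 and TERT. HCT116 and DLD-1 are colorectal carcinoma lines, and SW620 was derived from a lymph node metastasis. All are labelled wild type, no drug treatment is named, and each line gave 1 library from spheroids grown for 7 days in medium with 10% serum and pooled from 2 plates, with compact spheroids picked by eye. With 1 library per line no test was possible, no spread between replicates is known, and no value below has a replicate error. Where 4 values follow each other, they are FPKM (fragments scaled to transcript length and library total), with HCEC-1CT first, then HCT116, then DLD-1, and SW620 last.

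Fluorouracil is a prodrug that uses the enzymes of uracil and thymidine. It is turned into ribonucleotides by UMPS, which joins it to phosphoribose, or by UPP1 followed by the uridine kinase UCK2, and into a deoxynucleoside by TYMP followed by the thymidine kinase TK1. Ribonucleotide reductase, made of RRM1 and RRM2, turns the diphosphate into its deoxy form, and the product FdUMP blocks thymidylate synthase, TYMS, the only de novo source of thymidylate. DUT splits dUTP and its fluorinated form before they enter DNA, and DPYD starts the breakdown of uracil, thymine and fluorouracil. TK1, RRM2 and TYMS are known as genes of S phase, and DUT makes a nuclear and a mitochondrial form from different first exons.

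Short stretches of the RefSeq promoters (GRCh38.p14) are shown first, for TK1, RRM2, TYMS, DUT and DPYD, on which the results below turn. Each window holds 250 bases before and 50 after a RefSeq start site, and the 10 genes have 19 such windows. E2F words (TTTCCCGC, TTTCGCGC, TTTGCCGC or TTTGGCGC, either strand) were found in 2 of the 19 windows, 1 of TYMS and 1 of DUT, against 3.31% of all 35116 windows. In DUT they lie only before the most downstream of its RefSeq start sites, at positions -42 and -27. The CCAAT box (CCAAT, either strand) was found in 7 of the 19 windows, those of RRM1, RRM2, TK1, TYMP and UCK2, against 34.6% of all windows, with 3 copies before one RRM2 start site and 2 before one TK1 start site. DPYD had neither, but each of its windows held 3 copies of the Sp1 word GGGCGG (either strand), which was in 14 of the 19 windows and 45.0% of all windows. The CHR word TTTGAA (either strand) was in 3 of the 19 windows, of DUT, RRM1 and UMPS, against 15.2%. A match describes letters only. Positions count from RefSeq start sites, and transcripts described below can start further upstream. RRM2-212 is listed from 10122568, TK1-201 from 78187233 on the minus strand, TYMS-203 from 657604 and DUT-202 from 48332103. The words printed for RRM2, TK1, TYMS and DUT lie after those listed starts. The stretches run 5′ to 3′ on the strand of the gene, with the word or its reverse complement in capitals.
DUT E2F words, plus strand, chr15:48332151-48332180: gctgGCGGGAAAtttcggtTTTGGCGCgct
TYMS E2F word, plus strand, chr18:657603-657632: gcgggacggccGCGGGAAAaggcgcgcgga
RRM2 first CCAAT box, plus strand, chr2:10122605-10122634: gcaaggcgcagCCAATgggaagggtcggag
RRM2 second CCAAT box, plus strand, chr2:10122635-10122664: gcatggcacagCCAATgggaagggccgggg
TK1 first CCAAT box, minus strand, chr17:78187112-78187141: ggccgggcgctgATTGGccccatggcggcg
TK1 second CCAAT box, minus strand, chr17:78187082-78187111: gggccggctcgtgATTGGccagcacgccgt
DPYD Sp1 words, minus strand, chr1:97921063-97921092: gccCCGCCCcgggggcgttgCCGCCCcgcg

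The libraries differed in ways that touch all 10 genes. Steps in the low values correspond to about 29500000, 25300000, 23300000 and 28700000 sequenced fragments, in that order of lines. Over 9313 protein-coding genes with at least 1 FPKM in every library, the median log2 ratio to HCEC-1CT was 0.42 in DLD-1, 0.38 in HCT116 and 0.31 in SW620. The ratios below keep that shift. All 4 lines are labelled epithelial, but of 8 epithelial markers 5 (EPCAM, CDH1, KRT19, KRT20 and CDX2) were listed at 0 in HCEC-1CT, and the sum of all 8 was 7.20 FPKM there against 1538 to 6756 FPKM in the cancer lines. All 8 fibroblast markers were at least 4-fold lower in every cancer line, with sums of 1019 FPKM in HCEC-1CT and 1.46 to 28.0 FPKM in the others; COL1A2 was listed at 0 in all 3 cancer lines. The 20 genes of S phase and proliferation summed to 54.4, 315, 580.5 and 216 FPKM. These marker differences lie between the same libraries that are compared for the 10 genes. Their part in the ratios of the 10 genes was not tested.

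The threshold for calling a gene higher or lower was a 4-fold ratio of FPKM plus a pseudocount of 1, where the larger of both values was at least 1 FPKM. On that scale TK1 and RRM2 were higher, and DPYD lower, in all 3 cancer lines. Over all 18637 genes with at least 1 FPKM in any library, 2.68% were higher and 2.99% lower in all 3. TYMP was lower in DLD-1 and SW620 only, and TYMS and RRM1 were higher in DLD-1 only. UPP1, UMPS, UCK2 and DUT reached 4-fold in none of the 3 lines. By line, 2 members were higher and 1 lower in HCT116, against 10.3% and 5.73% of all genes tested. In DLD-1 4 were higher and 2 lower, against 10.4% and 6.3%. In SW620 2 were higher and 2 lower, against 10.3% and 6.36%. The 3 ratios share the HCEC-1CT library, so agreement between them is not 3 separate observations. At 2-fold, UCK2, TK1, RRM1 and RRM2 were higher and DPYD lower in all 3 lines, so 4 and 1 members, against 9.35% and 7.11% of all genes. Line by line the 2-fold counts were 5 higher and 1 lower in HCT116, against 30.8% and 15% of genes tested. They were 6 and 3 in DLD-1, against 29.3% and 14.6%, and 4 and 2 in SW620, against 28.7% and 16.4%. With a pseudocount of 5 FPKM none of TK1, RRM2 and DPYD passed in all 3 lines, beside 0.461% higher and 1.39% lower over all genes. With median-ratio scaling the split over all genes moved from 1684 higher and 933 lower to 1353 and 1189 in HCT116, and from 1722 and 1039 to 1404 and 1288 in DLD-1, and on the TPM scale it was 1232 and 1204 in HCT116. Every 4-fold member call against HCEC-1CT held under both. At 2-fold RRM1 in HCT116 was lost on the TPM scale, at 0.96, and so no longer passed in all 3 lines, and DUT in DLD-1 was lost with median-ratio scaling, at 0.82.

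**Figure D1:**
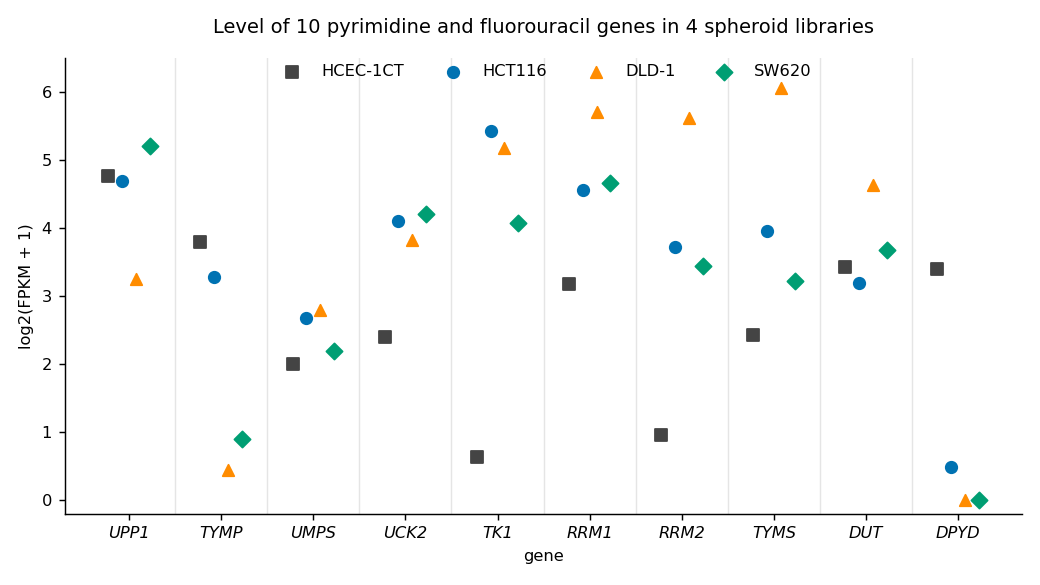
Level of each gene as log2(FPKM + 1), with 1 point per library. TK1 and RRM2 lie lowest in HCEC-1CT, DPYD lies near 0 in the 3 cancer lines, and TYMP lies near 0 in DLD-1 and SW620.

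Among the genes of the first activation steps, UPP1, the uridine phosphorylase that adds ribose to uracil (chr7:48088628-48108733, plus strand, ENSG00000183696), stood at 26.4, 24.8, 8.53 and 36.2 FPKM. It was the most abundant of the 10 genes in HCEC-1CT and SW620. DLD-1 stood lowest, with a log2 ratio to HCEC-1CT of -1.52, and the other 3 libraries lay within 2-fold of their neighbours in the order. The gene's FPKM was spread over 13 transcripts. The leading one in HCEC-1CT, HCT116 and SW620 was an entry that the table names without a known transcript, with 24.4%, 31.9% and 24.6% of the total. Transcripts annotated as protein coding summed to only 3.61, 4.17, 2.00 and 12.9 FPKM, so that SW620 stood further above the rest in coding transcripts than in the gene value.

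TYMP, the thymidine phosphorylase (chr22:50525752-50530056, minus strand, ENSG00000025708), split the lines. It stood at 13.0, 8.77, 0.365 and 0.866 FPKM. HCEC-1CT and HCT116 were high, DLD-1 and SW620 low, and the gap between HCT116 and SW620 was 2.39 on the log2 scale. The log2 ratios to HCEC-1CT were -3.36 in DLD-1, -2.91 in SW620 and -0.52 in HCT116. The coding transcripts of TYMP divided the lines more sharply, at 7.74, 4.41, 0 and 0.0537 FPKM. Retained-intron transcripts made up 100% of what was left in DLD-1 and 93.8% in SW620, against 40.4% in HCEC-1CT and 49.7% in HCT116. The low gene values stand for about 13.7 fragments in DLD-1 and 43.8 in SW620. A pair of neighbours that overlap TYMP on the same strand had the same high and low libraries. SCO2, a copper chaperone of mitochondria, was listed at 1.91, 1.94, 0 and 0 FPKM, and ODF3B stood at 2.47, 1.25, 0.0552 and 0.405 FPKM. Reads of these genes and of TYMP can fall in the same bases.

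UMPS, the bifunctional enzyme that closes de novo synthesis of uridylate (chr3:124730366-124749273, plus strand, ENSG00000114491), was the most even of the 10. It stood at 2.99, 5.39, 5.93 and 3.57 FPKM, and no neighbours in that order were 2-fold apart. Its log2 ratio in SW620, 0.19, was -0.035 with median-ratio scaling. The full-length transcript UMPS-201, of 480 residues, led in every library. It held 59.1% of the gene in HCEC-1CT and 74.2% to 88.7% in the cancer lines.

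UCK2, the uridine and cytidine kinase (chr1:165827531-165911618, plus strand, ENSG00000143179), stood at 4.29, 16.2, 13.2 and 17.5 FPKM. HCEC-1CT was low and the cancer lines lay close together, the largest step among them being 0.28 on the log2 scale. The log2 ratios of 1.70, 1.42 and 1.81 fall short of 4-fold but pass 2-fold in each line. Transcript UCK2-201, of 261 residues, led throughout with 65.2% to 83.8%. The first 225 bases of UCK2 overlap TMCO1 on the opposite strand, which stood at 35.9, 30.5, 43.5 and 40.3 FPKM and does not share the pattern.

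TK1, the cytosolic thymidine kinase of dividing cells (chr17:78174075-78187233, minus strand, ENSG00000167900), had the highest ratio of the 10 in HCT116 and SW620. It stood at 0.549, 42.2, 35.1 and 15.9 FPKM. HCEC-1CT stood far below the others and held about 26.9 fragments, while SW620 stood 2-fold or more below DLD-1. The log2 ratios were 4.80, 4.54 and 3.45, and they placed TK1 above 99.5%, 98.7% and 97.1% of all genes tested in HCT116, DLD-1 and SW620. TK1 ranked last of the 10 genes in HCEC-1CT and first in HCT116. The leading transcript in the cancer lines was TK1-201, of 234 residues, at 0, 39.3, 30.7 and 14.6 FPKM. Nearly all of the little found in HCEC-1CT was assigned to TK1-203, of 267 residues.

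The subunits of ribonucleotide reductase differed in size of change. RRM1, the large subunit (chr11:4094707-4138876, plus strand, ENSG00000167325), stood at 8.04, 22.5, 51.3 and 24.4 FPKM. HCEC-1CT was lowest and DLD-1 highest, and HCT116 and SW620 lay within 0.11 on the log2 scale of each other. RRM1-201, of 792 residues, held 88.6% to 92.0% of the gene in every library. RRM1-AS1, which overlaps RRM1 by 44060 bases on the opposite strand, stood at 0.318, 0.693, 1.92 and 0.729 FPKM. Since it is not known whether the libraries kept strand, reads of both in the shared bases may not have been separable. RRM2, the small subunit that carries the tyrosyl radical (chr2:10120698-10131419, plus strand, ENSG00000171848), stood at 0.951, 12.2, 48.3 and 9.92 FPKM. Its order over the lines was the same at the ends, with log2 ratios of 2.76, 4.66 and 2.48 against 1.38, 2.53 and 1.49 for RRM1. RRM1 exceeded RRM2 by 2.21 on the log2 scale in HCEC-1CT but by 0.84 in HCT116, 1.22 in SW620 and 0.085 in DLD-1. RRM2B, the alternative small subunit, ran otherwise, at 15.5, 24.1, 12.0 and 8.78 FPKM.

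The transcripts assigned to RRM2 in DLD-1 differed from those in HCT116 and SW620. RRM2-212, of 449 residues, led in HCT116 with 75.7% and in SW620 with 42.0%. In DLD-1 the shorter RRM2-206, which starts inside the gene, led with 41.0%, as it did with 26.2% of the low total in HCEC-1CT, at 0.250, 0.386, 19.8 and 0.229 FPKM. By FPKM times length RRM2-212 led in every library with at least 1 FPKM, DLD-1 included. The 7 retained-intron transcripts summed to 0.465, 1.41, 14.5 and 0.774 FPKM, or 30.1% of the gene in DLD-1 against 11.5% in HCT116 and 7.80% in SW620. The share was largest in HCEC-1CT, at 48.9% of a gene that held about 26.6 fragments there. Over all genes, retained-intron transcripts held 6.79%, 5.00%, 8.54% and 5.18% of the summed FPKM, so DLD-1 had the largest share over all genes. Coding transcripts of RRM2 alone kept the same order, at 0.333, 10.3, 32.8 and 8.86 FPKM, but RRM2-212 alone did not, at 0.00126, 9.22, 8.52 and 4.17 FPKM. By that transcript, the log2 ratio of HCT116 to DLD-1 was 0.10 in place of -1.90 for the gene, and DLD-1 against SW620 fell below 4-fold, at 0.88 in place of 2.17. AC007240.1, which overlaps RRM2 by 8681 bases on the same strand, stood at 0.0329, 0.0696, 2.51 and 0.108 FPKM, high in DLD-1 alone. Reads of both can fall in the same bases.

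**Figure D2:**
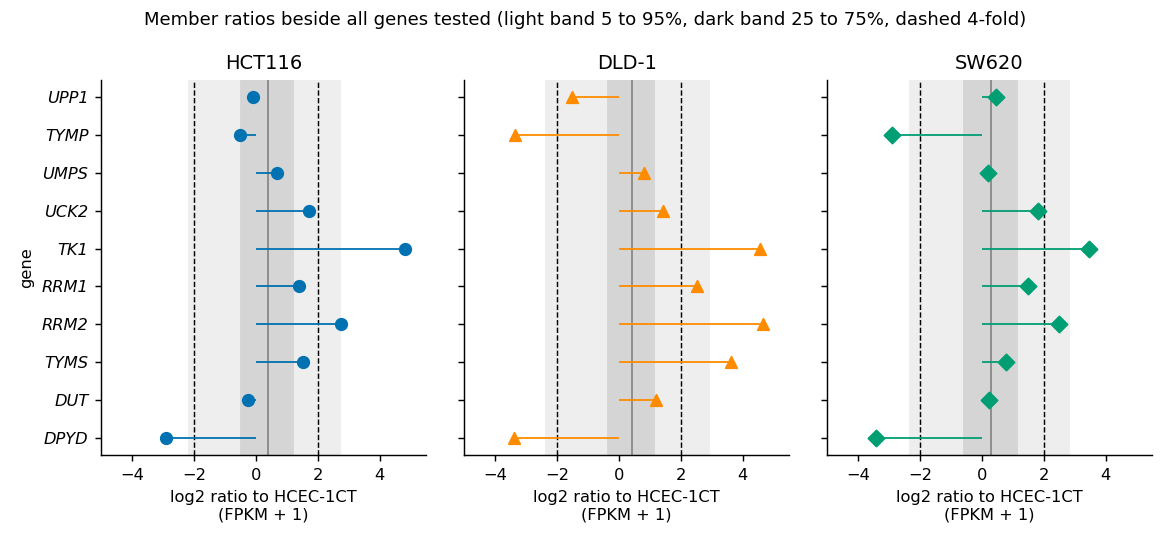
Log2 ratio of each gene to HCEC-1CT (FPKM plus 1) in HCT116, DLD-1 and SW620, beside the spread of all genes tested. TK1 and RRM2 lie to the right of the upper 4-fold line and DPYD to the left of the lower one in every panel, and TYMP lies left of it in DLD-1 and SW620. DPYD in SW620 was listed at 0 and is drawn where the pseudocount places it.

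TYMS, the target of the drug (chr18:657604-673578, plus strand, ENSG00000176890), was set apart by DLD-1. It stood at 4.40, 14.5, 65.9 and 8.32 FPKM. DLD-1 lay 2.11 above HCT116 on the log2 scale and 2.84 above SW620, and HCT116, SW620 and HCEC-1CT each lay within 2-fold of the next. The log2 ratios to HCEC-1CT were 1.53, 3.63 and 0.79. The full-length transcript TYMS-203, of 313 residues, led in every library and stood at 2.81, 7.20, 60.4 and 5.86 FPKM. TYMS-201, of 279 residues, was listed at 0, 5.14, 0 and 1.92 FPKM, so it was seen in HCT116 and SW620 only. ENOSF1, which overlaps the last 3255 bases of TYMS on the opposite strand, stood at 33.7, 3.59, 12.9 and 4.71 FPKM. It was highest where TYMS was lowest, but in DLD-1, where TYMS was highest, it stood above HCT116 and SW620. Since it is not known whether the libraries kept strand, reads of the pair in the shared bases may not have been separable. TYMSOS, at the other end, stood at 0.979, 2.42, 4.18 and 1.32 FPKM.

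DUT, the dUTPase (chr15:48331011-48343373, plus strand, ENSG00000128951), reached 4-fold in no line as a gene, but its transcripts differed more. The gene stood at 9.84, 8.12, 24.0 and 11.8 FPKM, with DLD-1 highest and no neighbours in the order 2-fold apart. Its transcripts were then grouped by start, a grouping chosen after their values were seen. The 6 that start between positions 48331011 and 48331473, among them DUT-201 of 252 residues, summed to 8.19, 2.43, 8.72 and 8.53 FPKM. The 3 that start between 48332103 and 48332406, among them DUT-202 of 164 residues, summed to 0.811, 4.63, 12.8 and 2.42 FPKM. The shorter protein is the known nuclear form and the longer one the mitochondrial form.

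The downstream group thus held 8.24% of DUT in HCEC-1CT but 20.5% in SW620, 53.6% in DLD-1 and 57.0% in HCT116. Its log2 ratios to HCEC-1CT were 1.64, 2.93 and 0.92, against -1.42, 0.080 and 0.052 for the upstream group. DUT-202 by itself stood at 0.597, 4.16, 11.4 and 2.28 FPKM and DUT-201 at 4.65, 0.538, 2.39 and 6.70 FPKM. The lead passed from DUT-201 in HCEC-1CT and SW620 to DUT-202 in HCT116 and DLD-1. The E2F words printed above lie in the window of the downstream start. The transcripts share most exons, so the division rests on the reads in the first exons and on the authors' assignment, which has no replicate. Of 8 processed copies of DUT, DUTP6 was the only one to reach 1 FPKM, at 1.00, 0.901, 0.194 and 0 FPKM.

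**Figure D3:**
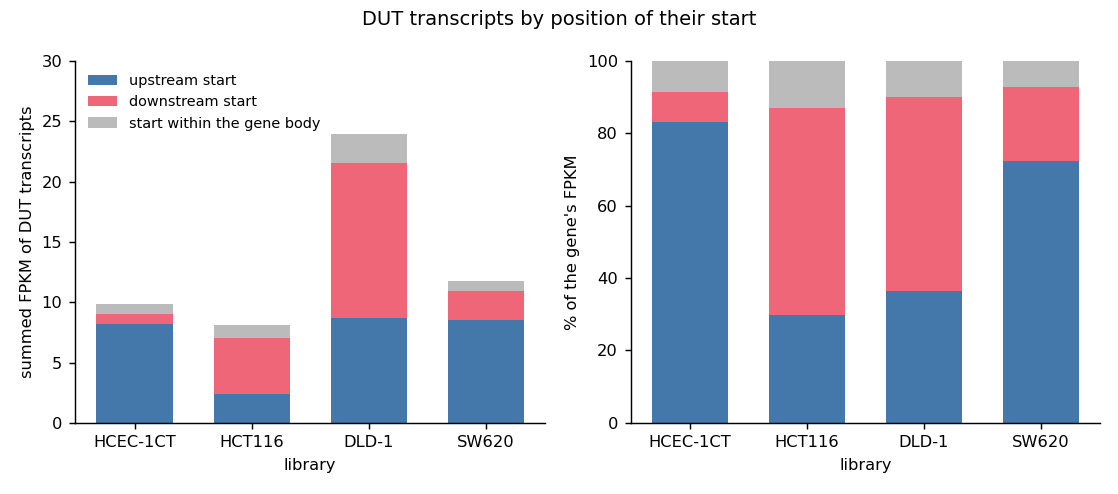
Summed FPKM of DUT transcripts (left) and their share of the gene in percent (right) by position of the transcript start, for each of the 4 libraries. The downstream group makes up 8.24% in HCEC-1CT and 57.0% in HCT116, and the upstream group is lowest in HCT116.

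DPYD, the first enzyme of breakdown (chr1:97077743-97995000, minus strand, ENSG00000188641), was found almost only in HCEC-1CT. It stood at 9.59, 0.410 and 0.00457 FPKM in HCEC-1CT, HCT116 and DLD-1 and was listed at 0 in SW620. The value in HCEC-1CT stands for about 1163 fragments, that in HCT116 for 45.8 and that in DLD-1 for less than 1. The log2 ratios were -2.91 in HCT116 and -3.40 in DLD-1. The pseudocount limits how low these can go, and none is given for SW620. None of 73 ribosomal protein genes was listed at 0 in any library, which does not show whether the 0 of DPYD in SW620 is an absence. DPYD-202, of 1025 residues, held 90.5% of the gene in HCEC-1CT and all of it in HCT116 and DLD-1. MIR137HG, which overlaps the far upstream end of DPYD on the same strand, was listed at 1.28, 0, 0 and 0 FPKM. Like all 8 fibroblast markers given above, DPYD was called lower in all 3 cancer lines, as were 2.99% of all genes. Its relation to those markers was not tested. Within HCEC-1CT, DPYD exceeded TYMS by 0.97 on the log2 scale, while in HCT116 and DLD-1 TYMS exceeded DPYD by 3.46 and 6.06.

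**Figure D4:**
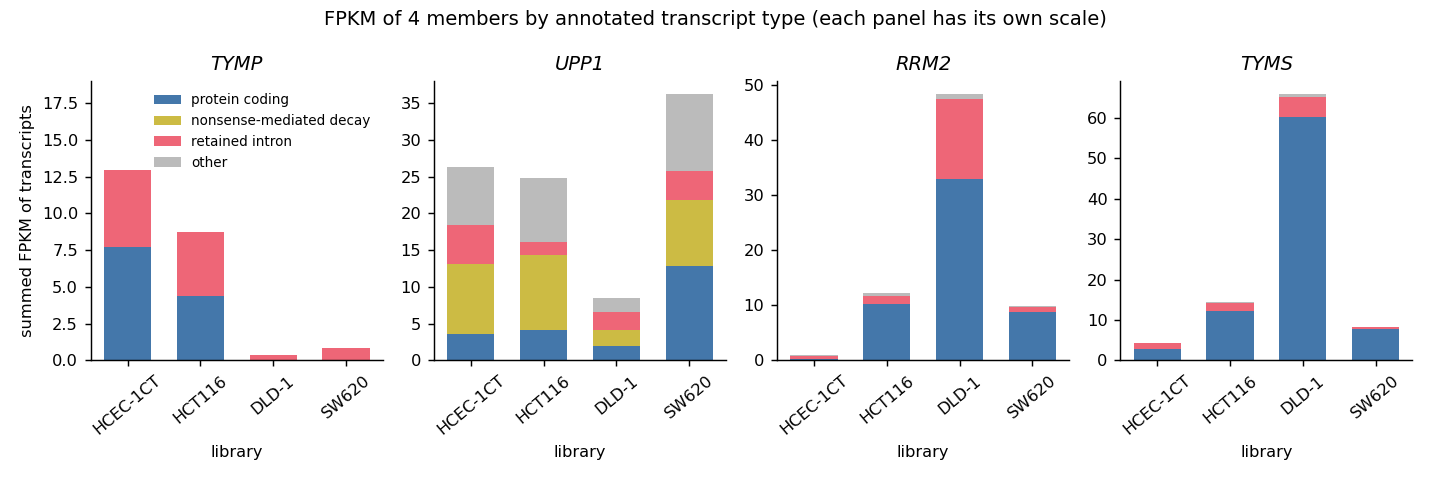
Summed FPKM of TYMP, UPP1, RRM2 and TYMS by annotated transcript type in each library, with a separate scale per panel. Coding transcripts of TYMP are at 0 in DLD-1 and at 0.0537 FPKM in SW620, and retained-intron transcripts of RRM2 reach 14.5 FPKM in DLD-1.

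Between the cancer lines fewer members differed by 4-fold. In HCT116 against DLD-1, TYMP was higher and TYMS lower, so 1 member each way, against 5.51% and 5.04% of all genes tested. At 2-fold 2 were higher and 4 lower in that pair, against 18.3% and 20.1%. In HCT116 against SW620, TYMP was higher and 0 were lower, against 3.95% and 4.37%. At 2-fold TYMP and TK1 were higher and 0 lower, against 16.6% and 14.2%. In DLD-1 against SW620, RRM2 and TYMS were higher and 0 were lower, against 4.82% and 5.35%. At 2-fold 4 were higher and 1 lower, against 21.1% and 16.2%. UPP1 fell just short of 4-fold between DLD-1 and SW620, with a log2 ratio of -1.97. Across the 4 libraries DLD-1 held the highest level of RRM1, RRM2, TYMS, DUT and UMPS and the lowest of UPP1 and TYMP.

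The other genes of the pathway were described from 7 lists of 61 genes, of which 52 reached 1 FPKM in some library. Of these 52, 3 were higher and 1 lower by 4-fold in all 3 cancer lines, beside 2.68% and 2.99% of all genes. Over 2 lines the counts can only stay or rise. Without SW620 7 were higher and 1 lower, beside 3.87% and 3.55% of all genes over the same 2 lines. Without DLD-1 5 were higher and 3 lower, beside 4.3% and 3.64%, and without HCT116 4 and 1, beside 4.03% and 3.78%. The median log2 ratios of those measured were 0.57 for HCT116, 0.57 for DLD-1 and 0.59 for SW620. Over all 18637 genes chosen by the same minimum, of any gene type, they were 0.27, 0.33 and 0.21. Over the 9313 protein-coding genes with at least 1 FPKM in every library they were 0.38, 0.42 and 0.31. At 2-fold 12 were higher and 3 lower in all 3 lines, beside 9.35% and 7.11% of all genes.

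In uptake and salvage 2 of 12 genes, of which 8 reached 1 FPKM in some library, were higher and 0 lower by 4-fold in all 3 lines. Over all genes the shares were 2.68% and 2.99%, for this list and those below. Those shares are over genes with at least 1 FPKM in some library. The list sizes can also count genes below that level, which could not be called. CDA, the cytidine deaminase that also takes part in the conversion of the prodrug capecitabine, stood at 1.85, 33.9, 20.9 and 85.9 FPKM. SLC29A2, an equilibrative nucleoside transporter, was listed at 0, 8.33, 12.3 and 6.77 FPKM. Among 10 nucleotide kinases and related enzymes 1 was higher, DCTPP1, which clears unusual deoxycytidine triphosphates, at 1.34, 30.5, 21.5 and 17.2 FPKM. Of the 2 other genes of de novo synthesis neither passed, with CAD at 13.0, 20.9, 22.3 and 12.9 FPKM and DHODH at 0.573, 2.86, 2.47 and 3.98 FPKM.

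Of 16 folate genes, which supply and recycle the cofactor that TYMS uses, 0 were higher and 1 was lower. That was ALDH1L2, a mitochondrial formyltetrahydrofolate dehydrogenase, at 12.7, 0.487, 0.0229 and 0.427 FPKM. None of 9 genes for breakdown and dephosphorylation passed in all 3 lines. NT5E, the ecto-5′-nucleotidase CD73, stood at 144, 30.5, 58.4 and 0.225 FPKM, and its log2 ratio was -1.29 in DLD-1. NT5M, the mitochondrial nucleotidase, stood at 0.0414, 2.98, 0.909 and 0.530 FPKM. NT5C, its cytosolic relative, stood at 8.59, 11.1, 14.2 and 26.0 FPKM. DPYS and UPB1, the enzymes after DPYD, did not reach 1 FPKM in any library.

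None of 7 genes that remove uracil from DNA passed in all 3 lines. UNG, the main uracil glycosylase, came closest at 4.32, 30.1, 29.9 and 9.84 FPKM, with log2 ratios of 2.55, 2.54 and 1.03. APEX1, which cuts the site that UNG leaves, stood at 7.32, 35.7, 19.2 and 8.08 FPKM, and POLB, the polymerase that fills it, at 11.1, 25.4, 16.5 and 26.4 FPKM. None of 5 efflux transporters passed either. ABCC4, which exports nucleotide analogues, stood at 55.0, 12.2, 13.5 and 9.58 FPKM, with log2 ratios of -2.09, -1.96 and -2.41. It fell just short in DLD-1, and was lower in all 3 lines with median-ratio, protein-coding total or TPM scaling and with a pseudocount of 0.1 FPKM. ABCG2 stood at 0.296, 2.61, 2.74 and 0.101 FPKM and ABCC3 at 48.9, 11.7, 73.2 and 25.2 FPKM.

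In the S phase and proliferation list of 20 genes, 7 were higher and 0 lower by 4-fold in all 3 lines, beside 2.68% and 2.99% of all genes, namely MCM2, MCM3, MCM6, MKI67, TOP2A, CDK1 and CCNB1. With median-ratio scaling the count was 4, beside 2.25% of all genes. Without SW620 it was 13, a count over 2 lines that cannot be lower than that over 3, beside 3.87% of all genes over the same 2 lines. The list medians were 2.41, 3.21 and 1.64, highest in DLD-1 and lowest in SW620. Of the members, the ratios of UMPS, RRM2 and TYMS also have that order, and the others do not. The ratios of RRM1 and DUT were lowest in HCT116, that of TK1 was highest in HCT116, and that of UCK2 was highest in SW620. MCM6, a helicase subunit of replication, stood at 0.875, 17.9, 33.5 and 11.1 FPKM, and MKI67, a marker of cycling cells, at 0.244, 13.2, 18.9 and 5.23 FPKM. Among 14 genes of the E2F and RB families and cell cycle inhibitors, 1 was higher and 0 lower, beside the same 2.68% and 2.99% of all genes. That was E2F1, at 0.583, 6.60, 9.54 and 6.77 FPKM. Fewer dividing cells and less of each RNA per dividing cell cannot be told apart in these bulk libraries.

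**Figure D5:**
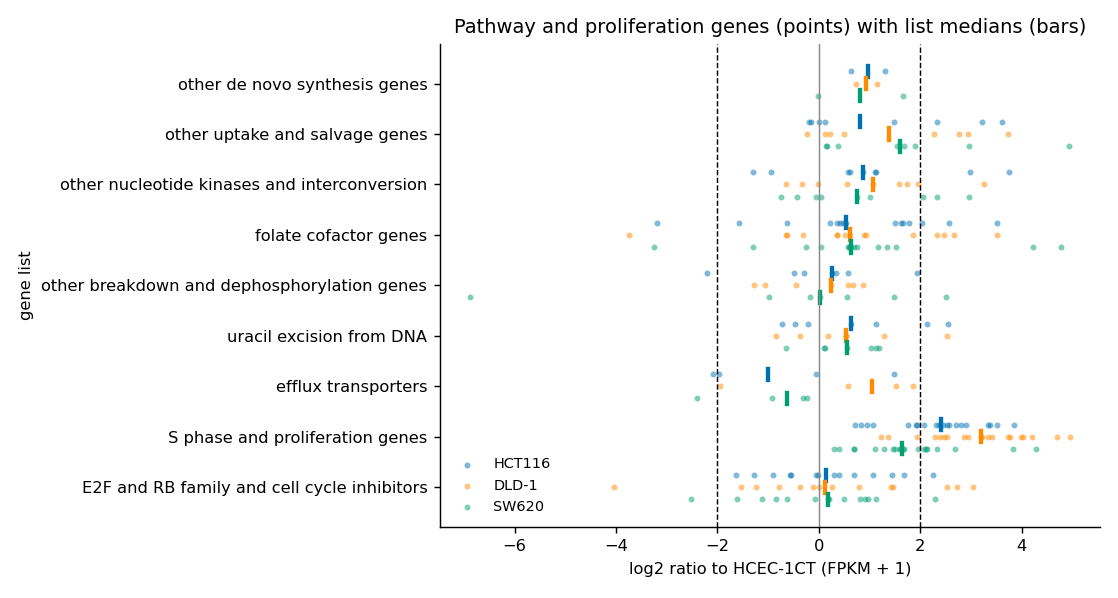
Log2 ratios to HCEC-1CT of the measured genes of each list (points) with the list medians (bars) in HCT116, DLD-1 and SW620. The S phase and proliferation genes lie furthest to the right, with medians of 2.41, 3.21 and 1.64.

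Of the 10 genes, 6 had at least a 4-fold range over the 4 libraries on the log2(FPKM + 1) scale, and their nearest patterns were looked up among 8832 protein-coding genes that reached 10 FPKM. Likeness was the distance between mean-centred profiles over only 4 libraries. Nearest to TYMS were HIST1H4B, CCNE2 and PCLAF, at distances of 0.065, 0.25 and 0.28. Nearest to RRM1 were BRCA1, HMGB2 and HOXA10, at 0.035, 0.082 and 0.14. RRM2 lay nearest to the histone genes HIST2H3C, HIST2H3A and HIST1H4D, at 0.33, 0.34 and 0.36. Histone genes have near-identical copies, so their values are uncertain. TK1 lay nearest to MPP7, CLDN3 and GDA, at 0.18, 0.36 and 0.39. DPYD lay nearest to FZD8, VASN and TBXAS1, at 0.19, 0.20 and 0.25, and TYMP to CSPG4, APBB1 and EVA1B, at 0.25, 0.39 and 0.57.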

How the data were processed

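RNA of 4 spheroid cultures was measured, 1 library per line. FPKM values per gene and per transcript are used as deposited by the authors. HISAT2, FastQC and the build hg38 are named per the submitters' processing notes, without versions, with the quantifier, annotation and strand setting not given in the sources used here. Both the gene and the transcript table hold 1 column that matches no sample and was not used. Gene types, strands and lengths came from GENCODE 29 (GRCh38), which holds 58275 of the gene IDs, with identical coordinates for the 10 genes. Gene values equal the sum of their transcripts to within 0.00220 FPKM.

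Depth was estimated from the most frequent small step of FPKM times length in genes with 1 transcript, within a tolerance of 0.01. The fragments given for low values follow from it and describe counting only. Ratios are log2 of FPKM plus 1, computed with Python 3.11.15, numpy 2.4.6 and pandas 2.3.3. The calling rule was tested on simulated data. The members, gene lists and naming rules were chosen with earlier results of these data known. From each list the text names genes past 4-fold in all 3 cancer lines, or else the 3 with the largest median ratio. Likeness used the 3 nearest protein-coding genes that reached 10 FPKM. RRM2B, DPYS and UPB1 fall outside that rule and were named after their values were seen. Alternatives were other pseudocounts, scalings, thresholds and minimum levels, the most abundant transcript, and leaving out a cancer line.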

Additional observations from a re-analysis of the deposited data

Results flagged for a closer look

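UPP1 and DUT had ratios to HCEC-1CT of opposite sign in different cancer lines, and with 1 library per line the difference was not tested. UPP1 had log2 ratios of -1.52 in DLD-1, -0.084 in HCT116 and 0.44 in SW620. DUT had log2 ratios of 1.20 in DLD-1, 0.24 in SW620 and -0.25 in HCT116. By the most abundant transcript, here DUT-202, DUT was above 0 in all 3 lines, at 1.69, 2.95 and 1.04 for HCT116, DLD-1 and SW620. That sign depends on the transcript taken. DUT-201, which led in HCEC-1CT and SW620, stood at 4.65, 0.538, 2.39 and 6.70 FPKM, so below HCEC-1CT in HCT116 and DLD-1. In SW620 the ratio of DUT was -0.035 with median-ratio scaling and -0.014 on the TPM scale. UPP1 in HCT116 was 0.26 by its most abundant transcript, and its ratios in DLD-1 and SW620 kept opposite signs under every alternative run. All these ratios share the HCEC-1CT library.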

How the results depend on the processing

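No paired analysis was possible because each line has 1 library and the labels give no replicate numbers. Among the members' ratios to HCEC-1CT under other settings, 245 kept both direction and call, 11 passed only there, 8 lost their call (all with a pseudocount of 5 FPKM) and 6 uncalled values changed sign (UMPS and DUT in SW620 with median-ratio and TPM scaling, UPP1 and DUT in HCT116 by the most abundant transcript). Counts of members are given as higher and lower. Shares of all genes for single pairs of lines are given above only for the values as deposited, at 4-fold and 2-fold. Under the other settings the counts for single pairs describe the members alone. With a pseudocount of 5 FPKM they were 1 and 0 in HCT116, 0 lower in DLD-1, 0 and 0 in SW620, 0 and 0 in all 3 lines, 0 and 0 for HCT116 against DLD-1, 0 higher for HCT116 against SW620 and 1 higher for DLD-1 against SW620. The pathway lists then gave 0 and 0 and the S phase list 1 higher, beside 0.461% higher and 1.39% lower in all 3 lines over all genes. At 2-fold the counts were 5 higher in HCT116, 4 higher in SW620, 4 higher in all 3 lines, 2 and 4 for HCT116 against DLD-1, 2 higher for HCT116 against SW620, 4 and 1 for DLD-1 against SW620, 12 and 3 in the pathway lists and 14 higher in the S phase list. With a pseudocount of 0.1 FPKM the pathway lists gave 5 and 2, the S phase list 11 higher, and DLD-1 against SW620 1 lower. Over all genes 5.92% were then higher and 5.25% lower in all 3 lines. With median-ratio scaling the pathway lists had 2 lower (ABCC4 and ALDH1L2, as under each setting below and with 0.1 FPKM), the S phase list 4 higher, and DLD-1 against SW620 1 lower. Over all genes the shares in all 3 lines were then 2.25% higher and 3.69% lower. Protein-coding total scaling gave 2 lower in the pathway lists, beside 3.2% of all genes. The TPM scale gave 2 lower in the pathway lists, 4 higher in the S phase list and 2 lower for HCT116 against DLD-1. On that scale 2.22% of all genes were higher and 3.56% lower in all 3 lines. By the most abundant transcript HCT116 against SW620 had 0 higher and DLD-1 against SW620 1 and 1. Leaving out a cancer line gave 2 higher and 1 to 2 lower members, 4 to 7 higher and 1 to 3 lower pathway genes, and 7 to 13 higher S phase genes. Over all genes and the same 2 lines, 3.87% to 4.3% were higher and 3.55% to 3.78% lower. The second lower member, without HCT116, was TYMP. A minimum of 5 FPKM or none changed no member count. The same transcript led in every library at 1 FPKM or more for 6 members, and for 7, RRM2 added, when weighted by length. The cause of these changes was not tested. Low values rest on few fragments, such as about 0.47 for DPYD and 13.7 for TYMP in DLD-1. TK1 and RRM2 in HCEC-1CT, which enter all their ratios, rest on about 26.9 and 26.6. The part of depth in the ratios was not tested.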
